A study of Homo sapiens with 6 samples.

Results

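The miR-23, miR-27 and miR-24 clusters are a pair of paralogous groups of microRNA hairpins, and 10 of their mature arms were followed in A549 cells. Members were taken by name from the deposited table, which listed all 10 of the arms named in the rule among its 787 mature miRNAs. Of these arms 5 are encoded only in the a cluster (hsa-miR-23a-3p, hsa-miR-23a-5p, hsa-miR-27a-3p, hsa-miR-27a-5p and hsa-miR-24-2-5p) and 4 only in the b cluster (hsa-miR-23b-3p, hsa-miR-27b-3p, hsa-miR-27b-5p and hsa-miR-24-1-5p). hsa-miR-24-3p is encoded in both. A549 is a human epithelial cell line derived long ago from a lung adenocarcinoma. The SMARCA4 group is A549 transfected with pcDNA4-SMARCA4, and the empty vector group is A549 transfected with pcDNA4. SMARCA4, also called BRG1, is an ATPase that powers SWI/SNF remodelling of nucleosomes, and its delivery is labelled a restoration. Both groups received Lipofectamine 2000 and were taken 48 h after transfection, with 3 libraries each, independent biological replicates per the design text. All libraries come from 1 cell line, with the transfected share of cells not given in the sources used here. SMARCA4 mRNA was not analysed here.

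Each cluster is transcribed as 1 primary RNA from which the hairpins are cut, and each hairpin yields a 5p and a 3p arm, of which usually 1 is kept by Argonaute and the other is mostly degraded. The seed, bases 2 to 8 of the mature arm, sets most of the target choice, so that a and b versions with the same seed share most targets. miR-23a and miR-23b are repressed by MYC and target glutaminase in human cancer cells, miR-27 represses the adipogenic regulator PPARG, and miR-24 represses cell cycle genes such as E2F2. The clusters are also known for roles in endothelial cells and angiogenesis.

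The a cluster lies on the minus strand of chromosome 19, with MIR23A at chr19:13836587-13836659, MIR27A at chr19:13836440-13836517 and MIR24-2 at chr19:13836287-13836359 (GRCh38.p14, RefSeq). Its 3 hairpins span 373 bases inside the long non-coding RNA gene MIR23AHG (chr19:13834516-13842918), and in GENCODE 29 they overlap an exon of the same-strand gene AC020916.1. The b cluster lies on the plus strand of chromosome 9, with MIR23B at chr9:95085208-95085304, MIR27B at chr9:95085445-95085541 and MIR24-1 at chr9:95086021-95086088. Its 3 hairpins span 881 bases inside C9orf3, which RefSeq calls AOPEP, a protein-coding gene on the same strand. MIR23B and MIR27B are intronic there, and MIR24-1 overlaps an exon of at least 1 C9orf3 transcript in GENCODE 29. MIR24-1 also overlaps the hairpin gene MIR3074 on the opposite strand.

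**Figure D1:**
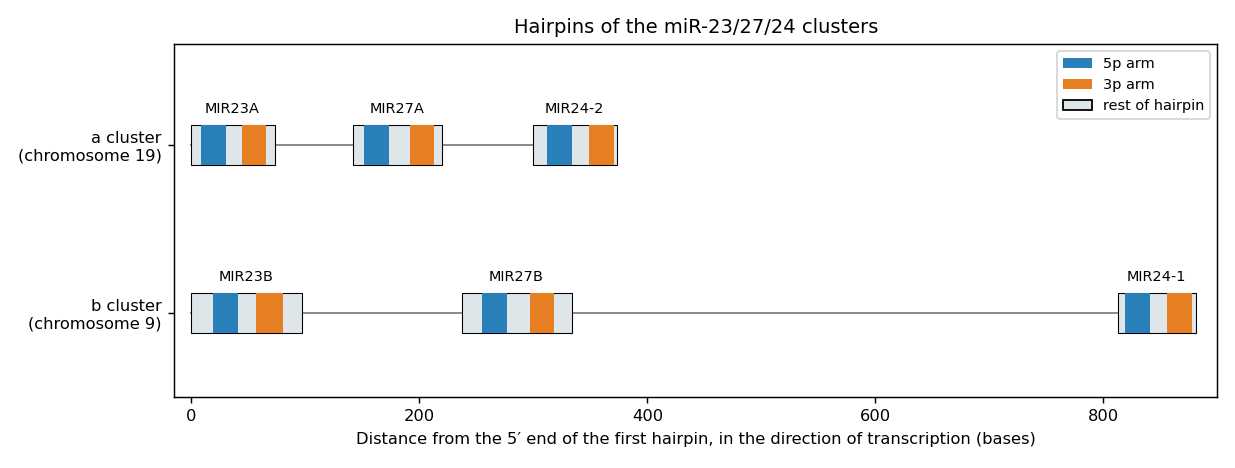
Map of the a cluster (upper line) and the b cluster (lower line), with the distance in bases from the 5′ end of the first hairpin along the direction of transcription. Boxes are hairpins with the 5p arm in blue and the 3p arm in orange. The a cluster spans 373 bases and the b cluster 881 bases, with 479 bases between MIR27B and MIR24-1.

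The mature arms are given 5′ to 3′ because the comparison of the clusters rests on how alike they are. Capitals mark the seed (RefSeq, GRCh38.p14).
hsa-miR-23a-3p: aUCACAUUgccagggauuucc
hsa-miR-23b-3p: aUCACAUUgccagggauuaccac
hsa-miR-27a-3p: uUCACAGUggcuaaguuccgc
hsa-miR-27b-3p: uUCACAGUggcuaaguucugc
hsa-miR-24-3p: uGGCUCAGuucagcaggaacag
hsa-miR-23a-5p: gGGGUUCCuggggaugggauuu
hsa-miR-27a-5p: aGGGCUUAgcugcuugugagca
hsa-miR-27b-5p: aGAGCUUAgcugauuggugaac
hsa-miR-24-2-5p: uGCCUACUgagcugaaacacag
hsa-miR-24-1-5p: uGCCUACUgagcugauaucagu
The 3p arms of miR-23 share their seed and differ over the 21 bases compared by U19A (position counted from the 5′ end, miR-23a first), with 2 further bases at the 3′ end of miR-23b-3p. The 3p arms of miR-27 share their seed and differ over 21 bases by C19U (miR-27a first). The 5p arms of miR-24-2 and miR-24-1 share their seed and are identical at 16 of 22 bases. Those of miR-27a and miR-27b do not share their seed and are identical at 14 of 22 bases. Reads that end before position 19 cannot be told apart between miR-23a-3p and miR-23b-3p or between miR-27a-3p and miR-27b-3p, with their treatment in the counting not given in the sources used here.

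The 2 hairpins of miR-24 show which of their arms can be assigned to a cluster. Capitals mark the 5p arm and then the 3p arm.
MIR24-2: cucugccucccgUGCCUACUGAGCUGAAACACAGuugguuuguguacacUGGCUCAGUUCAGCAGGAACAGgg
MIR24-1: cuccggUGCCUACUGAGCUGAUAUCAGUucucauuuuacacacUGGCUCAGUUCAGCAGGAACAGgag
The 3p arm is the same 22 bases in both, so a miR-24-3p read names no cluster, while the 5p arms differ.

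Values are read counts per mature miRNA that the authors multiplied by 1 factor per library, called normalized counts here. The libraries held between 701885 and 7274329 recovered reads, and SMARCA4 replicate 2, the deepest, held 8.33 times the mean of the other 5. That library also stood apart within its group for the members: it was the lowest of the 3 SMARCA4 libraries for 6 of the 10 and the highest for 3. The main estimates of the members are given with and without it, while likeness was taken with it only. Whether its depth plays a part was not tested. Of the epithelial marker miRNAs 6 of 7 were listed, with summed levels of 425 to 623 normalized counts in SMARCA4 cells and 356 to 677 in empty vector cells, and miR-200c-3p among them had a mean of only 7.80. Of these, miR-141-3p and miR-203a-3p rose (limma adjusted p = 0.0124 for both). Without SMARCA4 replicate 1, or without empty vector replicate 1, limma called 0 miRNAs and both calls were lost. miR-203a-3p had 3 reads or fewer in each empty vector library. miR-200b-3p, the most abundant of the list, was lower in every SMARCA4 library with a limma adjusted p of 0.109 (log2 fold change −1.14), and miR-200c-3p was at −0.064. By contrast, miR-200a-3p was higher in every SMARCA4 library (log2 fold change 1.27, limma adjusted p = 0.178). miR-429 was at 0.66 and its groups overlapped (limma adjusted p = 0.449). Without SMARCA4 replicate 2 the log2 fold changes of miR-200b-3p, miR-200c-3p, miR-200a-3p and miR-429 were −0.94, 0.37, 1.19 and 0.95. The listed muscle markers, miR-1-3p and miR-133a-3p, were at 0 in every library. The endothelial miR-126 arms summed to 1200 to 1401 in SMARCA4 cells and 746 to 1490 in empty vector cells. Of 7 blood markers 3 were listed, with sums of 7962 to 14458 in SMARCA4 cells and 5621 to 7213 in empty vector cells, nearly all of it miR-486-5p. The fibroblast and smooth muscle list (3 of 4 listed) summed to 31.4 to 122 in SMARCA4 cells and 22.6 to 51.3 in empty vector cells, and miR-145-5p was at or near 0. miR-9-5p, listed of the liver and neuron markers, was at 146, 427 and 165 in SMARCA4 replicates 1, 2 and 3. It ranged from 140 to 146 in empty vector cells (log2 fold change 0.60, and 0.12 without SMARCA4 replicate 2). SMARCA4 replicate 2 also held the highest sum of the blood list and of the fibroblast and smooth muscle list. The log2 fold changes of miR-486-5p and miR-143-3p were 0.61 and 0.73 with that library and 0.33 and 0.25 without it. The part of such markers in the results was not tested.

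No member passed the test between SMARCA4 and empty vector cells. With limma on log2(value + 1) over the 637 miRNAs with a mean of at least 1, 0 of the 10 members had an adjusted p under 0.05, against 1.41% of all tested miRNAs (0.942% higher and 0.471% lower). edgeR and DESeq2 on the recovered reads also called 0 members. An unadjusted p under 0.05 was reached by 2 members, miR-27b-3p and miR-23a-5p, against 22.6% of all tested. The groups of 3 did not overlap for the same 2 members, against 31.1% of all tested. miR-27b-3p was the 1 member higher with no overlap, against 15.9% of all tested, and miR-23a-5p the 1 member lower, against 15.2%. The median log2 fold change of the members was 0.23, and that of all tested miRNAs −0.047. Without SMARCA4 replicate 2 these medians were 0.13 and −0.095. Rescaling the libraries to the same total moved the median of all tested by −0.26, to −0.31, and put the median of the members at −0.093.

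**Figure D2:**
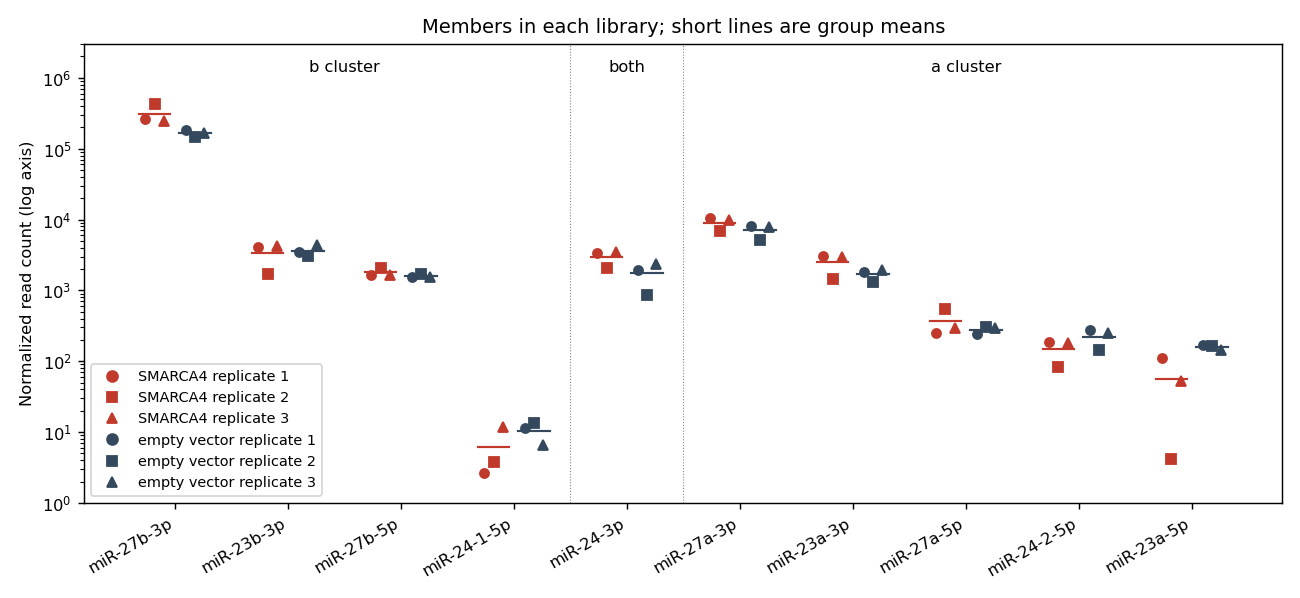
Normalized read counts (log axis) of the 10 members in each SMARCA4 library (red, left of each pair) and each empty vector library (dark, right), with group means as short lines. miR-27b-3p lies above all other members in every library, and miR-23a-5p and miR-27b-3p are the members whose groups do not overlap.

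hsa-miR-27b-3p was by far the most abundant member and the 2nd most abundant of the 787 miRNAs by mean value. It was at 265734, 426224 and 247183 normalized counts in SMARCA4 replicates 1, 2 and 3, against 184004, 148282 and 164156 in empty vector replicates 1, 2 and 3. Every SMARCA4 library was above every empty vector library, and SMARCA4 replicate 2 was the highest. The groups averaged 313047 ± 98452 in SMARCA4 cells and 165481 ± 17898 in empty vector cells (SD, n = 3 each). The estimated difference was 1.84-fold (log2 fold change 0.88, SE 0.31) and did not pass over all miRNAs (limma adjusted p = 0.141). Without SMARCA4 replicate 2 the log2 fold change was 0.64 (limma adjusted p = 0.0839). With the libraries rescaled to the same total it was 0.56 (limma adjusted p = 0.157). With quantile normalization it was 0.32 (limma adjusted p = 0.544). That method gives each rank the same value in every library, which by itself limits the change of a miRNA near the top.

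As a share of all listed reads, miR-27b-3p made up 14.5%, 13.9% and 13.6% in SMARCA4 replicates 1, 2 and 3. In empty vector replicates 1, 2 and 3 it made up 11.1%, 8.35% and 9.30%. This share does not depend on the authors' scaling, and here SMARCA4 replicate 2 lay with the other SMARCA4 libraries. All 10 members together held 15.0 ± 0.708% of the listed reads in SMARCA4 cells and 10.5 ± 1.53% in empty vector cells (SD, n = 3 each). The groups were apart, with an exact p of 0.1 in a two-sided permutation of the libraries, which is the smallest value possible for 3 against 3. Without SMARCA4 replicate 2 the difference was 4.80 percentage points, against 4.48 with it. The 95% Wilson intervals of these shares were at most 0.17 percentage points wide. The members other than miR-27b-3p held 1.00 ± 0.449% in SMARCA4 cells and 0.942 ± 0.196% in empty vector cells (SD, n = 3 each), and their groups overlapped (exact two-sided permutation p = 1). Without SMARCA4 replicate 2 they averaged 1.26% in SMARCA4 cells and 0.942% in empty vector cells, with no overlap. miR-27b-3p accounted for between 91.6% and 96.6% of the member reads in SMARCA4 libraries and for between 89.8% and 92.1% in empty vector libraries.

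The other arm of that hairpin, miR-27b-5p, varied little. It was at 1658, 2083 and 1631 normalized counts in SMARCA4 replicates 1, 2 and 3, against 1563, 1706 and 1532 in empty vector replicates 1, 2 and 3. The groups overlapped, and the log2 fold change was 0.15 (SE 0.25, limma adjusted p = 0.740). It was 0.041 without SMARCA4 replicate 2 and −0.17 with the libraries rescaled to the same total.

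hsa-miR-23b-3p, cut from the same primary RNA as miR-27b-3p, was at 4155, 1712 and 4181 normalized counts in SMARCA4 replicates 1, 2 and 3. It was at 3443, 3041 and 4331 in empty vector replicates 1, 2 and 3. SMARCA4 replicate 2 was the lowest of the 6 libraries, at 0.411 times the mean of the other SMARCA4 libraries, which lay within the upper part of the empty vector range. The log2 fold change was −0.20 (SE 0.38, limma adjusted p = 0.783), and without that library it was 0.22 (limma adjusted p = 0.553). The last b arm, miR-24-1-5p, had few reads, with 1, 9 and 5 reads in SMARCA4 replicates 1, 2 and 3 and 6, 7 and 4 reads in empty vector replicates 1, 2 and 3. Its log2 fold change was −0.86 (SE 0.64, limma adjusted p = 0.440), and −0.69 without SMARCA4 replicate 2 (limma adjusted p = 0.583), and with 9 reads at most per library the estimate is imprecise.

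hsa-miR-24-3p, which both clusters encode, was at 3415, 2103 and 3485 normalized counts in SMARCA4 replicates 1, 2 and 3. In empty vector replicates 1, 2 and 3 it was at 1950, 852 and 2392. The groups overlapped because SMARCA4 replicate 2 lay below empty vector replicate 3. The estimated difference was 1.85-fold (log2 fold change 0.88, SE 0.41) and did not pass (limma adjusted p = 0.232). It was 1.12 on the log2 scale without SMARCA4 replicate 2 (limma adjusted p = 0.116). Leaving out empty vector replicate 2, the lowest library, gave 0.44 (limma adjusted p = 0.462).

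The major arms of the a cluster both had SMARCA4 replicates 1 and 3 as their highest libraries. miR-27a-3p was at 10482, 6833 and 9721 normalized counts in SMARCA4 replicates 1, 2 and 3, against 8014, 5186 and 7822 in empty vector replicates 1, 2 and 3. With limma this gave an adjusted p of 0.481 (log2 fold change 0.37, SE 0.30). The other arm, miR-23a-3p, was at 3093, 1438 and 3003 in SMARCA4 replicates 1, 2 and 3, against 1810, 1316 and 1931 in empty vector replicates 1, 2 and 3. The estimate for that arm was 0.51 on the log2 scale (SE 0.35, limma adjusted p = 0.411). For both arms SMARCA4 replicate 2 lay inside the empty vector range. Without that library the log2 fold change was 0.55 for miR-27a-3p (limma adjusted p = 0.176) and 0.87 for miR-23a-3p (limma adjusted p = 0.0543). In that setting 0 of the 10 members were called, against 6.44% of all tested, and 5 had groups that did not overlap, against 43.5%. Of these, 4 were higher (miR-23a-3p, miR-27a-3p, miR-24-3p and miR-27b-3p), against 20.6% of all tested miRNAs, and 1 was lower (miR-23a-5p), against 22.9%.

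Among the minor arms of the a cluster, miR-23a-5p was at 110, 4.22 and 51.9 normalized counts in SMARCA4 replicates 1, 2 and 3. It was at 170, 164 and 144 in empty vector replicates 1, 2 and 3. All SMARCA4 libraries were lower, and SMARCA4 replicate 2, where 10 reads were counted in the deepest library, lay 19.1 times below the mean of the other SMARCA4 libraries. The log2 fold change was −2.35 (SE 0.93, limma adjusted p = 0.178), and −1.06 without that library (limma adjusted p = 0.114). miR-24-2-5p was at 186, 82.8 and 182 in SMARCA4 replicates 1, 2 and 3, against 272, 145 and 253 in empty vector replicates 1, 2 and 3, and the groups overlapped. Its estimate was −0.61 (log2, SE 0.42) with a limma adjusted p of 0.413, and −0.23 without SMARCA4 replicate 2 (limma adjusted p = 0.703). miR-27a-5p was at 251, 545 and 297 in SMARCA4 replicates 1, 2 and 3, against 241, 300.5 and 296 in empty vector replicates 1, 2 and 3. SMARCA4 replicate 2 was the highest library for that arm, and the log2 fold change was 0.31 (SE 0.35, limma adjusted p = 0.635) with it and −0.024 without it.

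**Figure D3:**
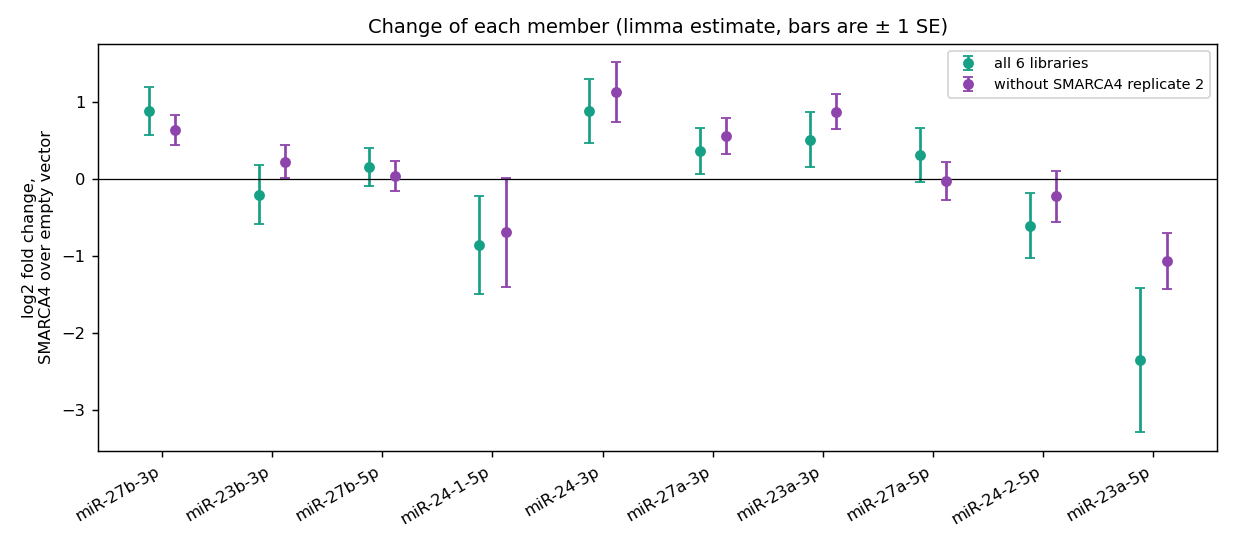
log2 fold change of each member, SMARCA4 over empty vector, with bars of ± 1 SE from limma, for all 6 libraries (green) and without SMARCA4 replicate 2 (purple). The estimate of miR-23a-5p moved to −1.06 from −2.35 and that of miR-23b-3p changed sign when that library was left out.

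The order of the members by mean level was the same in both groups. Levels of different miRNAs within a library also carry the ligation efficiency of each sequence, which was not measured, and the arms are of nearly equal length (21 to 23 bases). In SMARCA4 cells miR-27b-3p was followed by miR-27a-3p, miR-23b-3p, miR-24-3p, miR-23a-3p, miR-27b-5p, miR-27a-5p, miR-24-2-5p, miR-23a-5p and miR-24-1-5p. Neighbours whose SMARCA4 ranges overlapped were the run from miR-23b-3p to miR-27b-5p and the run from miR-24-2-5p to miR-24-1-5p. In empty vector cells the ranges of neighbours overlapped from miR-24-3p to miR-27b-5p and from miR-27a-5p to miR-23a-5p.

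Ratios of a b arm to its a counterpart within a library do not depend on how libraries were scaled. The log2 ratios and their tests used values with 1 added, so for scarce arms they do depend on it. miR-23b-3p over miR-23a-3p was 1.34, 1.19 and 1.39 in SMARCA4 replicates 1, 2 and 3, against 1.90, 2.31 and 2.24 in empty vector replicates 1, 2 and 3. All SMARCA4 libraries were lower and the groups did not overlap, with SMARCA4 replicate 2 close to the others. The log2 ratio averaged 0.38 ± 0.12 in SMARCA4 cells and 1.10 ± 0.15 in empty vector cells (SD, n = 3 each), a difference of −0.72, or 1.64-fold lower. Permuting the libraries gave an exact two-sided p of 0.1, again the smallest possible, and 0.4 after Benjamini-Hochberg adjustment over the 4 paired ratios. The difference stayed between −0.80 and −0.65 with any 1 library left out, and was −0.65 without SMARCA4 replicate 2. In a limma fit over the 116 pairs of listed miRNAs with a shared seed and a mean of at least 10 each, chosen after seeing the data, the pair had an adjusted p of 0.124. Of those pairs 7.76% passed, 29.3% had groups that did not overlap, and 12.9% were lower with no overlap. Every combination within a seed was taken, so pairs can share a miRNA and larger families weigh more in these percentages.

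miR-27b-3p over miR-27a-3p was 25.4, 62.4 and 25.4 in SMARCA4 replicates 1, 2 and 3, against 22.96, 28.6 and 21.0 in empty vector replicates 1, 2 and 3. SMARCA4 replicate 2 carried most of that difference, which was 0.52 on the log2 scale with it and 0.083 without it (exact two-sided permutation p = 0.4 over all 6 libraries). miR-27b-5p over miR-27a-5p was 6.60, 3.82 and 5.48 in SMARCA4 replicates 1, 2 and 3, against 6.48, 5.68 and 5.18 in empty vector replicates 1, 2 and 3, with overlap of the groups (difference −0.15, and 0.065 without SMARCA4 replicate 2, exact two-sided permutation p = 0.7). miR-24-1-5p over miR-24-2-5p rested on at most 9 reads of miR-24-1-5p per library and its groups overlapped (difference −0.25, and −0.47 without SMARCA4 replicate 2, exact two-sided permutation p = 0.8).

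The summed b arms over the summed a arms, with miR-24-3p left out, came to 19.2, 48.3 and 19.1 in SMARCA4 replicates 1, 2 and 3. In empty vector replicates 1, 2 and 3 they came to 17.99, 21.5 and 16.3. The groups overlapped and the difference was 0.50 on the log2 scale (exact two-sided permutation p = 0.4), and 0.053 without SMARCA4 replicate 2. Within the clusters, the ratio of miR-27b-3p to miR-23b-3p was 64.0, 249 and 59.1 in SMARCA4 replicates 1, 2 and 3, against 53.4, 48.8 and 37.9 in empty vector replicates 1, 2 and 3. Its groups did not overlap (difference 1.08, and 0.41 without SMARCA4 replicate 2, exact two-sided permutation p = 0.1, the smallest possible, and 0.2 adjusted over the 2 ratios). The ratio of miR-27a-3p to miR-23a-3p was 3.39, 4.75 and 3.24 in SMARCA4 replicates 1, 2 and 3, against 4.43, 3.94 and 4.05 in empty vector replicates 1, 2 and 3, and overlapped (difference −0.15, and −0.32 without SMARCA4 replicate 2, exact two-sided permutation p = 0.5). These within-cluster ratios were chosen after seeing the data.

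**Figure D4:**
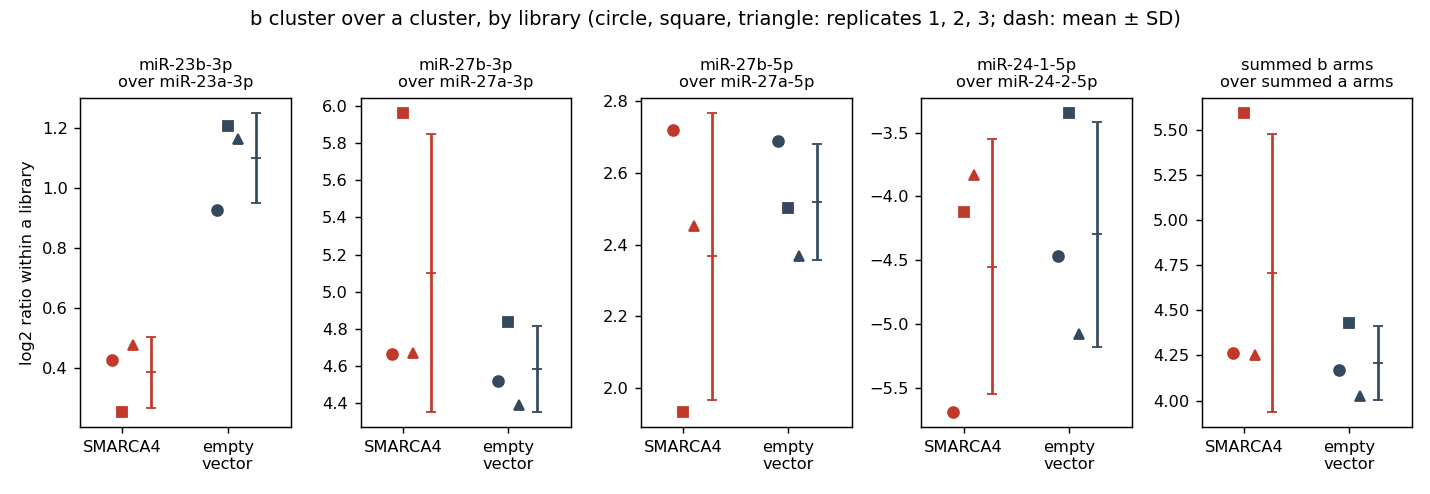
log2 ratio of each b arm to its a counterpart and of the summed arms, per library, with SMARCA4 left of empty vector and the mean ± SD beside the points. Each panel has its own axis. The groups are apart for miR-23b-3p over miR-23a-3p, at 0.38 ± 0.12 in SMARCA4 cells and 1.10 ± 0.15 in empty vector cells.

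Arm ratios set the 5p arm against the 3p arm of 1 hairpin in 1 library. The MIR23A hairpin is shown because its arm ratio differed most between the groups, with capitals for the 5p arm and then the 3p arm.
MIR23A: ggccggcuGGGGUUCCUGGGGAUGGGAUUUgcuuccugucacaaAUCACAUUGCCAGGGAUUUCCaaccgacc
For every 100 reads of miR-23a-3p, miR-23a-5p had 3.55, 0.294 and 1.73 reads in SMARCA4 replicates 1, 2 and 3, against 9.38, 12.4 and 7.45 reads in empty vector replicates 1, 2 and 3. All SMARCA4 libraries were lower, with SMARCA4 replicate 2 far below the others. The log2 ratio averaged −6.25 ± 1.69 in SMARCA4 cells and −3.38 ± 0.37 in empty vector cells (SD, n = 3 each), a difference of −2.86, and of −1.93 without SMARCA4 replicate 2. An exact two-sided permutation of the libraries gave p = 0.1, the smallest possible, and 0.167 adjusted over the 5 arm ratios.

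A limma fit over the 5p to 3p ratios of all 97 names with both arms at a mean of at least 10, also chosen after seeing the data, gave the miR-23a ratio an adjusted p of 0.0464 (SE 0.80). In that fit 16.5% of the ratios passed, 42.3% had groups that did not overlap, and 17.5% were lower with no overlap, so the ratio was one of many that passed. It also passed without SMARCA4 replicate 1 (limma adjusted p = 0.0371) and without SMARCA4 replicate 2 (limma adjusted p = 0.0363). The call was lost when SMARCA4 replicate 3 was left out (limma adjusted p = 0.0793), and likewise when empty vector replicate 1, 2 or 3 was left out (limma adjusted p = 0.133, 0.106 and 0.110).

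For every 100 reads of miR-24-3p, miR-24-2-5p had 5.44, 3.94 and 5.22 reads in SMARCA4 replicates 1, 2 and 3, against 13.9, 17.0 and 10.6 reads in empty vector replicates 1, 2 and 3. The groups did not overlap, and the difference of −1.49 on the log2 scale was −1.35 without SMARCA4 replicate 2 (exact two-sided permutation p = 0.1, the smallest possible, and 0.167 adjusted over the 5 arm ratios). Since miR-24-3p also comes from MIR24-1, this is not the ratio of 1 hairpin. miR-24-1-5p over miR-24-3p overlapped between the groups (difference −1.74, and −1.81 without SMARCA4 replicate 2, exact two-sided permutation p = 0.2) on the few reads given above.

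miR-27b-5p had 0.624, 0.489 and 0.660 reads per 100 reads of miR-27b-3p in SMARCA4 replicates 1, 2 and 3, against 0.850, 1.15 and 0.933 in empty vector replicates 1, 2 and 3. These groups did not overlap either (difference −0.73, and −0.60 without SMARCA4 replicate 2, exact two-sided permutation p = 0.1, the smallest possible, limma adjusted p = 0.231 over the 97 ratios). The ratio of miR-27a-5p to miR-27a-3p did overlap, at 2.39, 7.98 and 3.06 reads per 100 in SMARCA4 replicates 1, 2 and 3, against 3.01, 5.79 and 3.78 in empty vector replicates 1, 2 and 3. Its difference was −0.059 (exact two-sided permutation p = 1, limma adjusted p = 0.939) and −0.58 without SMARCA4 replicate 2.

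**Figure D5:**
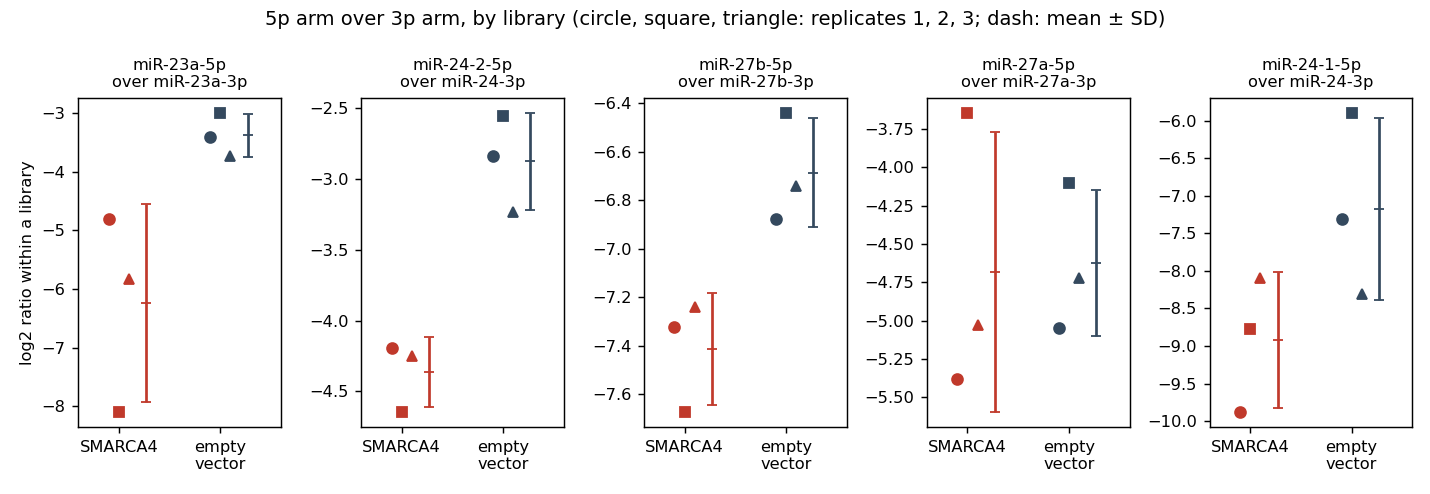
log2 ratio of the 5p arm to the 3p arm per library, with SMARCA4 left of empty vector and the mean ± SD beside the points. Each panel has its own axis. The groups are apart for miR-23a, for miR-24-2-5p over miR-24-3p and for miR-27b, and overlap for miR-27a and for miR-24-1-5p over miR-24-3p.

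Of 13 named arms encoded near the clusters, 11 were listed and 9 tested, of which 1 rose and 0 fell, against 1.41% of all tested miRNAs called in either direction. Their median log2 fold change was 0.53, and that of all tested miRNAs −0.047, but without SMARCA4 replicate 2 the medians were −0.26 and −0.095. That −0.26 is the estimate of miR-23b-5p (SE 1.19), which had 6 reads over all libraries, so it is imprecise. Of the 9 tested, 5 had a positive log2 fold change with that library and 3 without it. The arm that rose was miR-181c-5p, a member of the miR-181 family whose hairpin lies 38.0 kb from MIR23A on the opposite strand. It was at 1817, 1763 and 1617 normalized counts in SMARCA4 replicates 1, 2 and 3, against 535, 873 and 531 in empty vector replicates 1, 2 and 3 (log2 fold change 1.46, SE 0.29, limma adjusted p = 0.0456). Its call held without SMARCA4 replicate 2 (limma adjusted p = 0.0186). Without SMARCA4 replicate 1, and without empty vector replicate 1, limma called 0 miRNAs and that call was lost. The other arm of the hairpin, miR-181c-3p, had a log2 fold change of −0.57 (limma adjusted p = 0.338). Without SMARCA4 replicate 2 it was −0.70 (limma adjusted p = 0.210). The neighbouring miR-181d-5p had a limma adjusted p of 0.109, and of 0.0462 without SMARCA4 replicate 2. let-7d, let-7a-1 and let-7f-1 lie 906 kb or more from MIR23B on the same strand, and let-7a-5p and let-7f-5p had log2 fold changes of 0.74 and 0.53 that were −0.068 and −0.31 without SMARCA4 replicate 2. Both are also encoded elsewhere in the genome. Let-7d-5p, which comes from that single hairpin, was at 0.76 with and 0.11 without that library (limma adjusted p = 0.392 and 0.804).

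Directly on the clusters, miR-23b-5p, the minor arm of MIR23B and not a member, had 1 read over the 3 SMARCA4 libraries and 5 reads over the 3 empty vector libraries, all 5 in empty vector replicate 2. It shares the seed of miR-23a-5p. miR-3074-5p and miR-3074-3p, from the strand opposite MIR24-1, had 3 and 4 reads over all 6 libraries. Among seed relatives, miR-128-3p, whose seed overlaps that of miR-27, was listed at 1817, 1454 and 1620 normalized counts in SMARCA4 replicates 1, 2 and 3. It was at 1652, 936 and 1575 in empty vector replicates 1, 2 and 3, with a limma adjusted p of 0.617 (log2 fold change 0.27, and 0.35 without SMARCA4 replicate 2).

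Likeness to each major arm was taken over the 6 libraries. Over 412 miRNAs outside the clusters with a mean of at least 10, the highest Pearson correlation of log2(value + 1) with miR-23b-3p was that of miR-574-3p (r = 0.998). For miR-27b-3p it was that of miR-328-3p (r = 0.993), and for miR-24-3p that of miR-99b-5p (r = 0.990). miR-23a-3p was most like miR-197-3p (r = 0.988), and miR-27a-3p most like miR-17-3p (r = 0.981). Within the clusters, the member most like miR-23a-3p was miR-27a-3p (r = 0.942), and miR-27a-3p and miR-24-3p were most like each other (r = 0.953). The member most like miR-27b-3p was miR-27b-5p (r = 0.788), and that most like miR-23b-3p was miR-24-2-5p (r = 0.852). Of the 412 miRNAs outside the clusters, 3 were more like miR-23a-3p than its closest member, 2 more like miR-27a-3p, 5 more like miR-24-3p, 19 more like miR-23b-3p and 63 more like miR-27b-3p. Far fewer members than other miRNAs were available for this comparison. The points share libraries, depth and group, so these values describe the 6 libraries and carry no test.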

How the data were processed

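Small RNA of 6 A549 transfections was sequenced from TruSeq small RNA libraries, per the labels. The submitters' processing notes name bcl2fastq 2.18.0.12 and GRCh38, with trimmer, aligner, counter and annotation not given in the sources used here. The authors deposited a normalized signal per miRNA, a read count times 1 factor per library (the table's name speaks of TMM). Dividing by the smallest step gave whole reads for 100% of values within 1e-06 reads. Recovered totals cover listed miRNAs only. No molecular identifiers are mentioned, so intervals cover counting error only.

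The main test was limma 3.58.1 (R 4.3.3, mean-variance trend, group as the only term) on log2(value + 1), for 637 miRNAs with a mean of at least 1. The other 150 were not tested, and 44 were at 0 throughout. This scale understates changes of scarce miRNAs. p-values were Benjamini-Hochberg adjusted over all tested, with a threshold of 0.05. Single ratios and shares had exact two-sided permutation tests (SciPy 1.17.1), with 1 added to each value or sum before a log2 ratio was taken. The limma fits over arm ratios and over seed-sharing pairs were run without the mean-variance trend. Alternatives included edgeR 4.0.16 and DESeq2 1.42.0 on the recovered reads. The limma fit was run on simulated data with large planted changes and no outlying library. That run does not bear on changes as small as most of those here. Groups and replicate numbers came from titles.

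Members and lists were chosen with earlier results of these data known. Named miRNAs were all 10 members, the called and 4 most abundant entries of the neighbour and seed lists, and the most similar non-member per major arm. Others were chosen after their values were seen. Sequences and positions are from RefSeq (GRCh38.p14), which held all 10 members, and host genes also from GENCODE 29.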

Additional observations from a re-analysis of the deposited data

How the results depend on the processing

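No member passed the threshold under any alternative run that gave it an adjusted p (DESeq2 gave miR-24-1-5p none, and a minimum mean of 10 left it out), and 164 of 168 alternative estimates kept their sign. The exceptions were miR-27a-5p and miR-27b-5p with libraries rescaled to the same total (−0.016 and −0.17), and miR-27a-5p and miR-23b-3p with 1 library left out, which ranged from −0.024 to 0.53 and from −0.42 to 0.22. Estimates without the filter, with a minimum mean of 10, without the trend or with the replicate block equal the main ones by construction. Those could not change sign, so the count overstates how stable the signs are. The number of changed miRNAs was 9, but 23 without the filter and 44 by DESeq2, with 212 adjusted p-values undefined. With 1 library left out it ranged from 0 to 41. The 0 came without SMARCA4 replicate 1 and again without empty vector replicate 1, where limma still gave 119 and 103 miRNAs an unadjusted p under 0.05. The 41 came without SMARCA4 replicate 2, while omitting SMARCA4 replicate 3 or empty vector replicate 3 left 1 and 2. Rescaled to the same total, 12 were called, 4 higher and 8 lower, against 6 higher and 3 lower. The difference in the log2 ratio of miR-24-1-5p to miR-24-2-5p was 0.053 with a pseudocount of 5 and ranged from −0.64 to 0.32 with 1 library left out. The same range was −0.33 to 0.065 for miR-27b-5p to miR-27a-5p and −0.58 to 0.29 for miR-27a-5p to miR-27a-3p. The limma fit over all arm ratios gave the miR-23a arms −2.86 with a call that 3 against 3 libraries cannot reach in an exact permutation. The cause of these changes was not tested. Shares hold no pseudocount, so that alternative was not run for them.

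Same-numbered libraries deviated little together (r = 0.073, 0.088 and 0.014 for numbers 1, 2 and 3). SMARCA4 replicate 3 correlated better with empty vector replicate 1 (r = 0.049) than with its own number. For SMARCA4 replicates 1 and 2, r was negative with every empty vector library of another number. These values do not settle whether same-numbered libraries were handled together. With the replicate block 13 miRNAs were called, and 0 of the members. The block lowered the SE of every member but miR-24-1-5p, where it rose to 0.71 from 0.64. For miR-24-3p the SE fell to 0.22 from 0.41 (limma adjusted p = 0.0917 with the block). For miR-24-2-5p it fell to 0.24 from 0.42 (limma adjusted p = 0.183 with the block).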
